A study of Mus musculus with 2 samples.

Results

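A set of 7 genes known from work on developmental timing was followed: Lin28a, Lin28b, Trim71, Hmga2, Igf2bp1, Igf2bp2 and Igf2bp3. They were taken by symbol from the 27998 genes of the count tables, and each symbol matched a single row. These genes and the lists used below were chosen with earlier results of these data known. The shares over all genes set beside them are thus a description and not an independent comparison. The cells came from inter-limb somites of wild type C57BL/6 mouse embryos at E9.5 and E11.5, and both stages share that genotype and dissection. At each stage 3 embryos were pooled into 1 10x library, so the embryos cannot be separated. The comparison asked how the level of each gene at E11.5 differed from that at E9.5 inside cell classes that were present at both stages.

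With 1 library per stage there is no replicate check, no p-value is given, and stage, embryo pool and library cannot be told apart. The intervals in the text are exact 95% intervals that cover counting error only. Cells were kept if they had 200 or more genes, fewer than 6500, and less than 15% of unique molecular identifiers (UMIs) from the mitochondrial genome. By this filter 9851 of 10121 barcodes at E9.5 and 9595 of 10167 at E11.5 were kept, with medians of 12462 and 12479 UMIs per cell. The libraries shared 25 kept barcode sequences. A level is the number of UMIs of a gene summed over the cells of a class, per 1000000 UMIs of those cells (UPM). Because the libraries count the 3′ ends of transcripts, a level may be compared between classes and stages but not between genes.

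Lin28a and Lin28b are RNA-binding proteins that hold back maturation of the let-7 microRNAs by binding their precursors, which Zcchc11 (also called Tut4) and Zcchc6 (Tut7) then tail with uridine and the exonuclease Dis3l2 degrades. Mature let-7 in turn pairs through its seed with the 3′ untranslated regions (3′ UTRs) of mRNAs, among them those of Lin28a, Lin28b, Hmga2, Igf2bp1 and Trim71, so that Lin28 and let-7 restrain each other. Lin-28 and lin-41, the worm relatives of Lin28 and Trim71, were found as heterochronic genes, which set when cells move from early to late fates. In the mouse embryo the circuit is known for early, broad expression of Lin28 that gives way to let-7 as organs form.

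The let-7 family is defined by its seed, bases 2 to 8 of the mature microRNA. In the RefSeq entries for GRCm38.p6, 11 mature microRNAs held the let-7 seed, of which 9 were let-7a to let-7i or miR-98. A total of 5 are shown because they differ outside the seed and share it, with the seed in capitals.
let-7a-5p: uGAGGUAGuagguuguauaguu
let-7e-5p: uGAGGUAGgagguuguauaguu
let-7g-5p: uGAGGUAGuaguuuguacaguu
let-7i-5p: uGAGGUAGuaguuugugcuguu
miR-98-5p: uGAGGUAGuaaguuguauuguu
The microRNAs themselves were not measured, since the libraries captured polyadenylated RNA. Of 5 long host transcripts of let-7 that were looked up, only Huwe1, the host of let-7f-2 and miR-98, was listed in the tables. Its log2 ratio of E11.5 over E9.5 lay between −0.30 and 0.02 in the classes compared.

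All 7 genes held at least 1 match to the let-7 seed in their longest annotated 3′ UTR (GENCODE M21, GRCm38). A match was searched on the transcript strand as CTACCTC, the complement of bases 2 to 8, and counted as an 8-base match where an A followed, so that every 8-base match is also a 7-base match. Of 20926 genes with a 3′ UTR, 8.97% held a 7-base match and 3.03% an 8-base match. Representative stretches are printed to show the bases around a match, each 29 bases long on the minus strand of GRCm38 with the match in capitals.
Lin28a, chr4:134005182-134005210: cacagcctgttgaaCTACCTCAtttttgc
Lin28a, chr4:134004544-134004572: agatcgccacaaacCTACCTCActgtgtt
Lin28b, chr10:45381015-45381043: cccgggcgggaagtCTACCTCAtgcaagc
Trim71, chr9:114509040-114509068: ttagtatggattttCTACCTCAattttgg
Trim71, chr9:114509014-114509042: tggcaaaaagttgtCTACCTCAcgtcggc
Hmga2, chr10:120364217-120364245: ccgacattcaatttCTACCTCAgcatcag
Igf2bp1, chr11:95961771-95961799: ctgtgcgaagtaaaCTACCTCAaggtgtg
Igf2bp2, chr16:22059466-22059494: cacacaaataaaagCTACCTCAggtgttt
Igf2bp3, chr6:49086780-49086808: gcatttttactcaaCTACCTCAggtattc

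The number of matches separated the genes. Lin28b, Hmga2, Igf2bp1 and Trim71 each held 4, Lin28a held 2, and Igf2bp2 and Igf2bp3 held 1 each. All 4 matches of Trim71 and both of Lin28a were 8-base matches, against 1 of 4 in Lin28b and in Hmga2 and 3 of 4 in Igf2bp1. Genes with a 3′ UTR of similar length were used for comparison. Of these, 4 or more matches were held by 0.124% of 2413 genes for Hmga2 (3014 bases), 0.297% of 1346 for Lin28b (4445 bases), 0.333% of 601 for Igf2bp1 (6337 bases) and 0.483% of 829 for Trim71 (5512 bases). For Lin28a (2775 bases), 2.07% of such genes held 2 or more. For Igf2bp2 (1784 bases) and Igf2bp3 (2119 bases), 12.0% and 13.3% held at least 1. The genes under study were not removed from these comparison sets. By length, Trim71 lies in the set of Igf2bp1. Lin28b, Igf2bp1 and Nr6a1, a let-7 target described below, lie in that of Trim71. Trim71 and Nr6a1 lie in that of Lin28b. Each of these holds 4 or more matches, so the shares for these sets are not a background of unrelated genes. A match is a run of letters and not a measured site of binding.

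**Figure D1:**
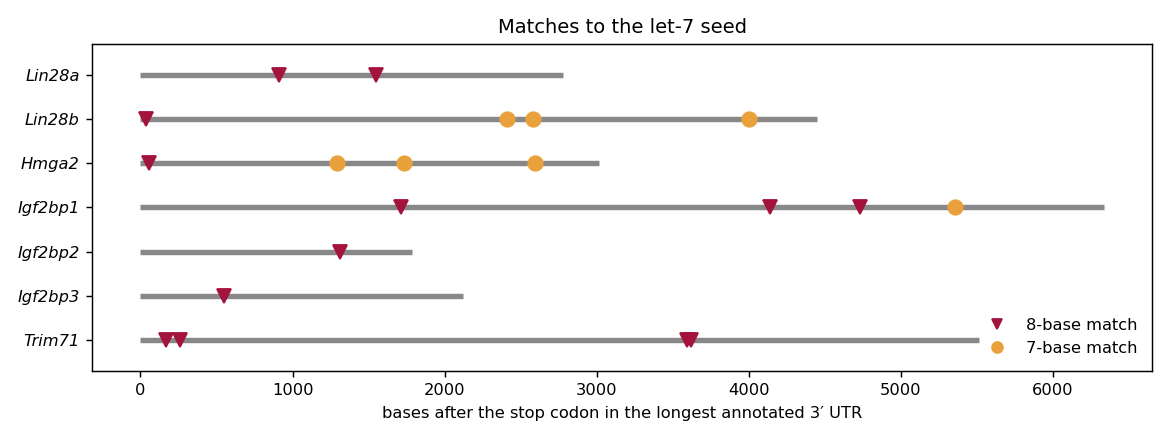
Position of each match to the let-7 seed in the longest annotated 3′ UTR of the 7 genes, in bases after the stop codon. Grey bars are the 3′ UTRs, triangles are 8-base matches and circles are 7-base matches. Trim71 and Igf2bp1 have the longest 3′ UTRs and 4 matches each, whereas Igf2bp2 and Igf2bp3 have 1 match each.

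The genes lie on chromosome 4 (Lin28a, ENSMUSG00000050966, 134003330 to 134018841), chromosome 10 (Lin28b, ENSMUSG00000063804, 45376620 to 45486395, and Hmga2, ENSMUSG00000056758, 120361275 to 120476469), chromosome 9 (Trim71, ENSMUSG00000079259, 114507133 to 114564369), chromosome 11 (Igf2bp1, ENSMUSG00000013415, 95957163 to 96005940), chromosome 16 (Igf2bp2, ENSMUSG00000033581, 22059009 to 22163299) and chromosome 6 (Igf2bp3, ENSMUSG00000029814, 49085223 to 49214957). All are on the minus strand of GRCm38.

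Cells were gated by the number of marker genes in which they held a UMI, and those that passed the gates of several classes were left out. The muscle gate needed 3 of 11 genes such as Pax3, Myf5 and Myog, and held 661 cells at E9.5 against 1413 at E11.5. The sclerotome gate, for the somite cells that form vertebrae and ribs, needed 3 of 8 genes such as Pax1, Sox9 and Col2a1 and held 1921 and 1986 cells. Nkx3-2, another of the 8, was found in only 0.573% and 1.16% of these cells. The neural tube gate needed 3 of 10 genes such as Sox1 and Sox2 and held 2028 and 131 cells. The endothelial gate needed 5 of 10 genes and held 295 and 61 cells, and the ectoderm gate needed 4 of 12 genes and held 121 cells at E9.5 (1775737 UMIs) and a number at E11.5 that gave 1515421 UMIs. A further 2824 and 4546 cells passed no gate, and 1098 and 500 passed several.

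The make-up of the gates moved with the stage. The share of cells with a UMI in at least 2 of 6 division genes was 95.6% to 99.7% in the gates at E9.5, whereas it was 68.9% to 74.2% at E11.5. In the muscle gate the summed level of the muscle markers was 670 UPM at E9.5 against 3743 at E11.5. Of the latter, Itm2a gave 2053 UPM and Myog 906. Pax3 (269 to 83.7 UPM), Dmrt2 (106 to 54.5) and Lbx1 (28.0 to 3.12) went the other way. Pax3 was found in 95.3% of the cells at E9.5 and 47.2% at E11.5. Myog was found in 3.78% and 47.1%, and Myod1 in 0.605% and 58.0%. In the ectoderm gate Krt5, a keratin of the basal epidermis, was found in 17.4% of cells at E9.5 against 96.5% at E11.5, and Trp63, the regulator of stratified epithelium, in 49.6% and 82.6%. At E9.5 Krt8 and Krt18, keratins of simple epithelium, were found in 95.9% and 98.3% of the gated cells. Col2a1 and Sox9, of the sclerotome list, were found in 69.4% and 47.1% at E9.5 and in 42.6% and 52.2% at E11.5. The markers of this gate thus do not separate surface ectoderm from other epithelia at E9.5. In the neural tube gate the summed level of the sclerotome markers was 64.7 UPM at E9.5, with 7 of 8 detected, and 585 at E11.5, with 3 of 8. Most of the latter was Sox9, which neural progenitors are also known to express, at 489 UPM, and Pax9, Nkx3-2, Uncx, Foxc2 and Tbx18 were at 0. The summed level of the neuron markers in that gate was 107 UPM at E9.5 against 409 at E11.5. Its own markers also moved. Olig2 was found in 25.7% of its cells at E9.5 and 0.763% at E11.5, Nkx6-1 in 39.8% and 14.5%, and Sox1 in 41.5% and 16.8%. Msx3 (25.3% and 42.0%) and Pax3 of the muscle list (32.9% and 52.7%) went the other way, and Sox2 stayed at 95.1% and 98.5%. The neural tube gate thus held a different mix of cells at the 2 stages. Ratios from dividing cells alone are given with the results, and the part of the other differences in the results was not tested.

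Lin28a, Lin28b and Trim71 were lower at E11.5 in all 5 gates, by 2.62-fold or more. With cells thinned to 5000 UMIs, Lin28b (log2 ratio −0.97) and Trim71 (−0.66) no longer passed 2-fold in endothelial cells. The members at least 2-fold lower numbered 3 of 7 in muscle, 3 in sclerotome, 4 in neural tube, 4 in endothelial and 4 in ectoderm gated cells. Among all genes with at least 50 UMIs over both stages of the gate, 4.79% in muscle, 3.94% in sclerotome, 6.65% in neural tube, 3.8% in endothelial and 4.81% in ectoderm were at least 2-fold lower. A gene with a count of 0 at 1 stage was taken at the limit of 3 UMIs in these counts, members and other genes alike. All 7 members passed that minimum in every gate. None was at least 2-fold higher, against 16.3%, 16.2%, 13.5%, 5.52% and 7.67% of all genes in the same order. The median log2 ratio of the members was −0.81, −0.76, −1.48, −1.07 and −1.08, and that of all genes was 0.07, 0.19, 0.15, 0.00 and −0.04.

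**Figure D2:**
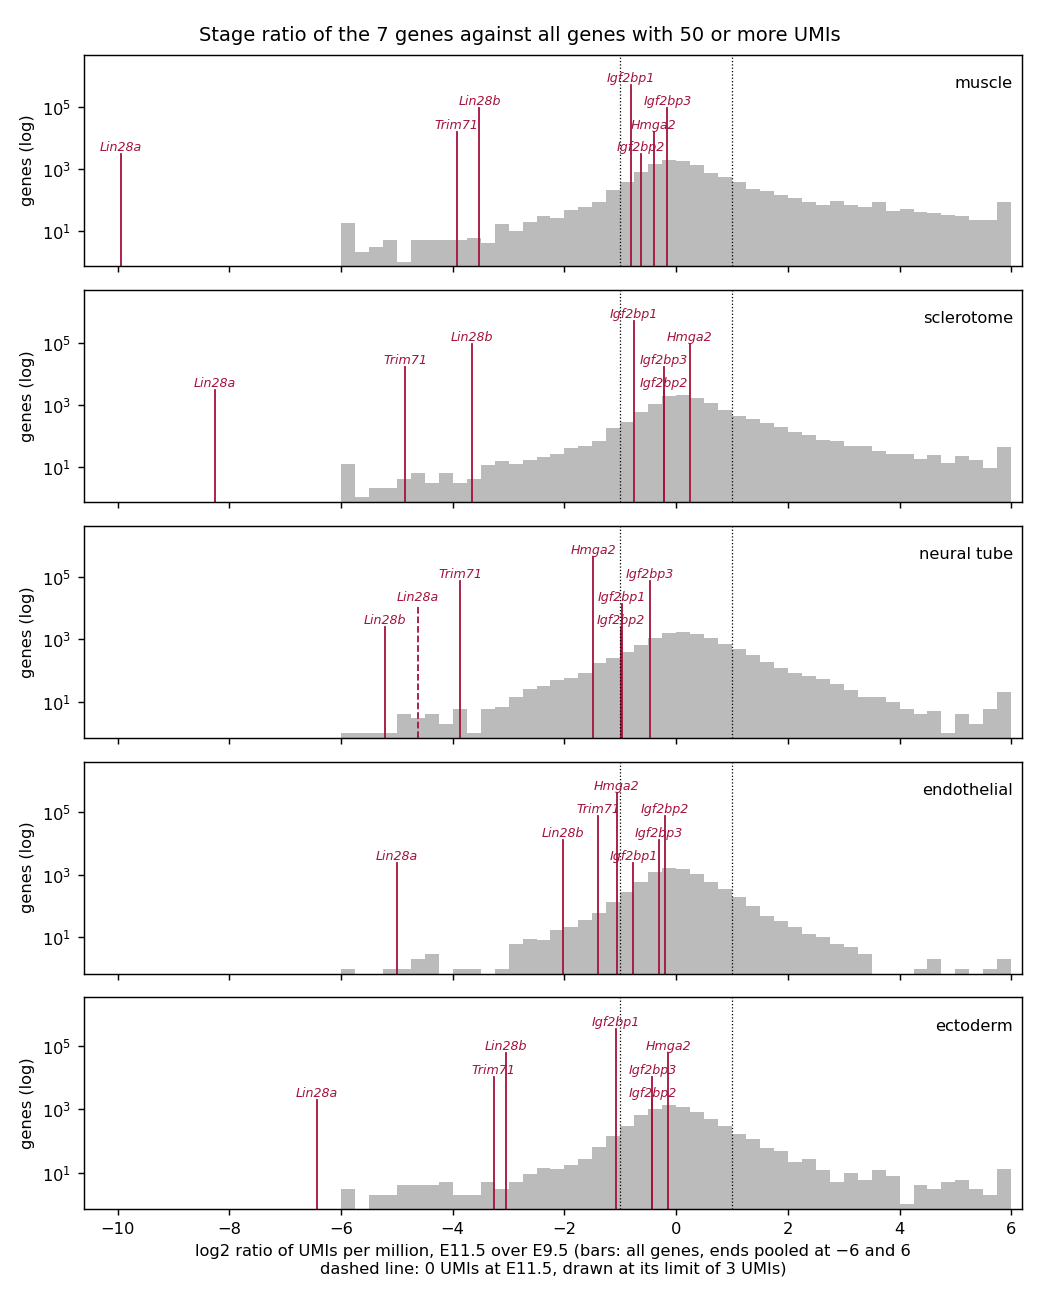
Log2 ratio of the level at E11.5 over that at E9.5 in each of the 5 gates. Grey bars count all genes with 50 or more UMIs (log axis), red lines mark the 7 genes, dotted lines mark 2-fold and a dashed line marks a gene with 0 UMIs at E11.5, drawn at the limit of 3 UMIs. Lin28a, Lin28b and Trim71 lie to the left of the lower 2-fold line in every gate, and the Igf2bp genes lie near or inside the lines.

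Lin28a showed the widest difference. In muscle gated cells it had 444 UMIs at E9.5 against 1 at E11.5, or 40.2 and 0.0410 UPM. In sclerotome it had 916 and 3 UMIs, or 35.4 and 0.116 UPM. In neural tube it had 1589 UMIs at E9.5 against 0 at E11.5. In none of these 3 gates did the intervals of the stages overlap, and over all 5 gates Lin28a had 3280 UMIs at E9.5 against 7 at E11.5.

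The log2 ratio of Lin28a was −9.94 (−15.24 to −7.45) in muscle and −8.26 (−10.54 to −6.71) in sclerotome. In neural tube the level was 24.6-fold lower with the count of 0 taken at its limit, from 58.6 UPM to what 3 UMIs give in the 131 cells. The exact interval of the log2 ratio there had an upper end of −4.32. In endothelial cells 129 UMIs stood against 1, a level 32.0-fold lower with a log2 interval of −10.32 to −2.50. In ectoderm 202 UMIs stood against 2 and it was −6.43 (−9.49 to −4.56). These wide intervals follow the very few UMIs at E11.5, and the order of the gates by the size of the ratio is not resolved by them. With genes at 0 taken at their limit, 0 of 11647 genes in muscle, 0 of 12018 in sclerotome, 1 of 7971 in endothelial and 1 of 6962 in ectoderm cells had a lower ratio. In neural tube, where Lin28a itself is at its limit, 9 of 10768 had.

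Seen per cell, a UMI of Lin28a was found in 41.9% of the 661 muscle gated cells at E9.5 (38.1% to 45.8%, Clopper-Pearson) and in 1 of 1413 at E11.5. It was found in 33.2% and 0.151% of sclerotome cells and in 69.4% and 0.870% of ectoderm cells. In neural tube it was found in 47.2% of cells at E9.5 and in 0 of 131 at E11.5, which allows a share of cells with a UMI of up to 2.29% by the limit of 3 counts. Red blood cells of the same libraries, in which free RNA from other cells would be seen, gave 2.56% (3 of 117 cells, median depth of 14468 UMIs) at E9.5 and 0 of 135 (16763 UMIs) at E11.5. The shares in the gates at E9.5, at median depths of 11586 to 14782 UMIs, were thus far above that of red blood cells, whereas those at E11.5 were not. In red blood cells the 8 red blood markers, globin genes among them, took 325663 UPM at E9.5 and 589959 at E11.5. At a like depth these cells therefore had fewer UMIs left for other genes. When each cell was thinned to 5000 UMIs, the share at E9.5 was 18.2% in muscle, 14.3% in sclerotome, 22.9% in neural tube, 12.1% in endothelial and 37.8% in ectoderm. At E11.5 the thinned share was 0 in 4 gates and 0.0517% in sclerotome.

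Lin28b, the paralog of Lin28a, was also lower in every gate, and in muscle and sclerotome it kept over 100 UMIs at E11.5. In muscle it had 837 UMIs at E9.5 against 161 at E11.5, or 75.8 and 6.60 UPM. In sclerotome it had 1325 and 105 UMIs, or 51.2 and 4.04 UPM. In neural tube it had 1593 and 2 UMIs, or 58.7 and 1.59 UPM. In all 3 gates the intervals of the stages were apart. The levels in endothelial cells were 42.9 and 10.6 UPM, from 196 and 12 UMIs, and those in ectoderm were 54.6 and 6.60 UPM, from 97 and 10 UMIs.

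The log2 ratio of Lin28b was −3.52 (−3.77 to −3.28) in muscle, −3.66 (−3.96 to −3.37) in sclerotome, −5.21 (−8.26 to −3.35) in neural tube, −2.02 (−3.00 to −1.18) in endothelial and −3.05 (−4.15 to −2.11) in ectoderm cells. The interval in endothelial cells lay above those in muscle and sclerotome. With cells thinned to 5000 UMIs the endothelial value was −0.97, from 59 and 6 UMIs, and no longer passed 2-fold. At E11.5 a UMI of Lin28b was found in 10.3% of muscle cells (8.79% to 12.0%) and 4.78% of sclerotome cells. Red blood cells at E11.5 gave 1.48% (2 of 135 cells). At E9.5 they gave 17.1% (20 of 117 cells), so they are not a clear blank for Lin28b. After thinning the E11.5 shares were 2.70% in muscle, 1.91% in sclerotome and 0.775% in red blood cells, at which depth a UMI of Lin28b was rare everywhere. The thinned share of red blood cells is lowered by the UMIs that their own markers take.

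Trim71, an RNA-binding ubiquitin ligase that is itself a classical let-7 target, went with the Lin28 genes. In muscle it had 1116 UMIs at E9.5 against 162 at E11.5, or 101 and 6.64 UPM. In sclerotome it had 2222 and 77 UMIs, or 85.8 and 2.97 UPM. In neural tube it had 2831 and 9 UMIs, or 104 and 7.14 UPM. The stages were again apart in each. The log2 ratio was −3.93 (−4.17 to −3.69) in muscle, −4.86 (−5.20 to −4.53) in sclerotome, −3.87 (upper bound −2.94) in neural tube and −3.27 (−4.05 to −2.57) in ectoderm cells.

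In endothelial cells Trim71 kept more of its level, with 69.3 UPM at E9.5 against 26.4 at E11.5, from 317 and 30 UMIs. The log2 ratio there was −1.39 (−1.98 to −0.85), above its interval in every other gate. Thinning to 5000 UMIs gave −0.66 from 87 and 11 UMIs, which did not pass 2-fold. At E11.5 a UMI of Trim71 was found in 34.4% of endothelial cells (22.7% to 47.7%), 9.91% of muscle cells and 3.68% of sclerotome cells, and in 0 of 135 red blood cells. The endothelial gate at E11.5 rested on 61 cells.

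Cells that held all 3 of these genes at once were scarce at E11.5. At E9.5, 163 of 661 muscle gated cells held a UMI of Lin28a, Lin28b and Trim71 alike and 55 held none of the 3. At E11.5, 0 of 1413 held all and 1147 held none. In sclerotome 253 of 1921 cells held all 3 at E9.5 and 0 of 1986 at E11.5. In ectoderm 43 of 121 cells held all 3 at E9.5 and 1 cell did at E11.5. In neural tube 405 of 2028 cells held all 3 at E9.5 and 0 of 131 at E11.5. In endothelial cells 34 of 295 held all 3 at E9.5 and 0 of 61 at E11.5. Exactly 2 of the 3 were held by 8 of these 61 cells, against 21 of 1413 in muscle and 3 of 1986 in sclerotome at E11.5. These counts follow from the level of each gene and from depth, and no link between the genes in a cell was tested.

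Few genes were lower in every gate. Of 6399 genes with at least 50 UMIs in each of the 5 gates, 30 (0.469%) were at least 2-fold lower in all of them, and Lin28a, Lin28b and Trim71 were 3 of the 30, although Lin28b and Trim71 did not pass in endothelial cells after thinning. At 8-fold the number was 2, Lin28a and Prtg, of which the latter encodes protogenin, a cell surface protein of the early embryo. Ranked by the ratio in the gate where each gene differed least, Lin28a had rank 1 at its neural tube limit of −4.62, Lin28b rank 5 at −2.02 and Trim71 rank 12 at −1.39, with Prtg, Nr6a1 and Sall4 between Lin28a and Lin28b. At 8-fold, 3 members were lower in muscle, sclerotome, neural tube and ectoderm and 1 in endothelial cells, against 0.653%, 0.574%, 0.344%, 0.517% and 0.138% of all genes.

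Hmga2, a chromatin protein of the AT-hook family and the best known let-7 target, did not go with the Lin28 genes. In sclerotome it had 12094 UMIs at E9.5 against 14327 at E11.5, or 467 and 552 UPM, and the log2 ratio was 0.24 (0.20 to 0.27). All genes of that gate had a median of 0.19, and relative to it the value was 0.05. In muscle it had 489 and 371 UPM, with a log2 ratio of −0.40 (−0.45 to −0.35). In ectoderm it had 526 and 478 UPM and −0.14 (−0.28 to 0.00), which became 0.05 when cells were thinned to 5000 UMIs. None of these 3 passed 2-fold in either direction.

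Hmga2 was at least 2-fold lower in neural tube and endothelial cells. In neural tube it had 362 UPM at E9.5 against 129 at E11.5, from 9811 and 163 UMIs, and the log2 ratio was −1.48 (−1.72 to −1.26). In endothelial cells it had 505 and 241 UPM, from 2312 and 274 UMIs, and the log2 ratio was −1.07 (−1.25 to −0.89). When only dividing cells were taken the endothelial value was −0.96. When cells that pass several gates were kept, the endothelial value was −0.88 and that in neural tube −0.96, all inside 2-fold. With 4 matches to the let-7 seed, Hmga2 held as many as Lin28b and Trim71.

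**Figure D3:**
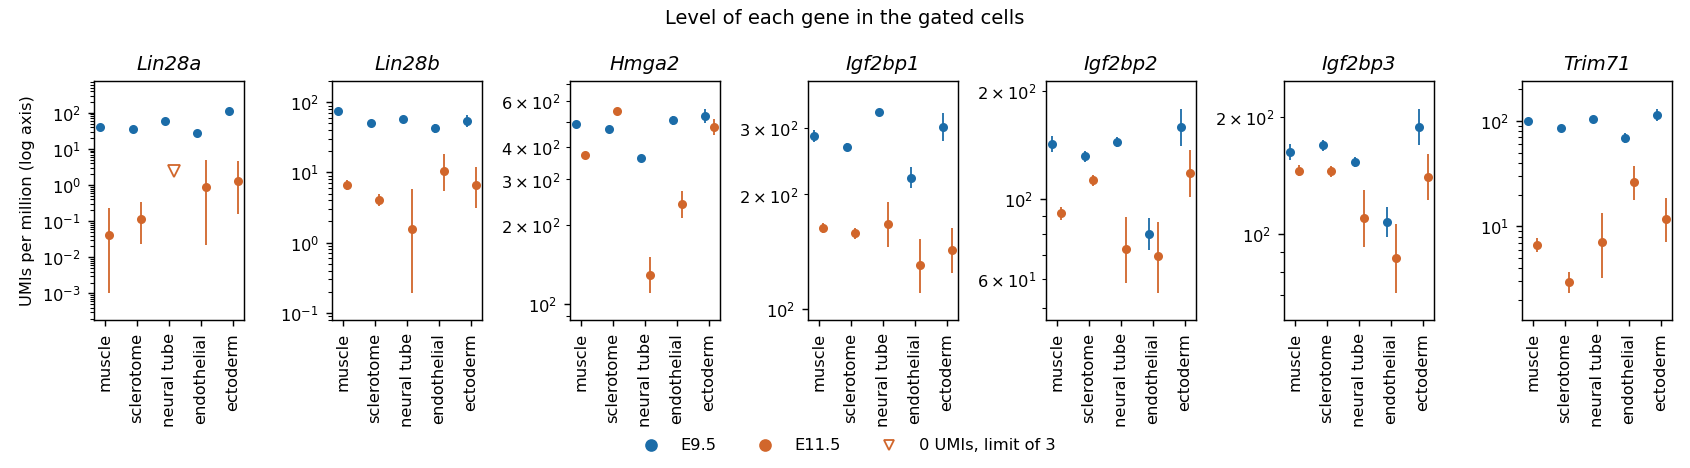
Level of each of the 7 genes in UPM (log axis, with its own range for each gene) in the 5 gates at E9.5 (blue) and E11.5 (orange). Bars are exact 95% Poisson intervals and cover counting error only, and the open triangle is the limit of 3 UMIs for a count of 0. The 2 stages are wide apart for Lin28a, Lin28b and Trim71, and close for Igf2bp3.

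Inside the muscle gate the level of Hmga2 differed more between the states of the cells at E11.5 than between the stages in progenitors. Cells with Pax3 or Pax7, the transcription factors of muscle progenitors, and without Myod1 and Myog, the factors of commitment and differentiation, had 500 UPM of Hmga2 at E9.5 (613 cells) and 553 at E11.5 (395 cells), a log2 ratio of 0.15 (0.08 to 0.21). At E11.5 the level was 385 UPM in 228 cells with Myod1 and no Myog and 197 in 666 cells with Myog. The intervals of these 3 states were apart. In the 351 of the Myog cells that held at least 5 of 10 sarcomere genes it was 129 UPM. The log2 ratio of Myog cells over the Pax3 or Pax7 cells at E11.5 was −1.49 (−1.57 to −1.42). At E9.5 the 25 Myog cells had 287 UPM (236 to 345).

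For Lin28b and Trim71 the stages were far apart, and no difference between muscle states was detectable at this depth. At E11.5 Lin28b had 6.41 UPM in the Pax3 or Pax7 cells, 6.31 in the Myod1 cells and 7.23 in the Myog cells, with a log2 ratio of Myog over Pax3 or Pax7 cells of 0.17 (−0.38 to 0.75). Trim71 had 5.93, 5.80 and 7.64 UPM, with a log2 ratio of 0.36 (−0.20 to 0.95). Their intervals overlapped in all states of E11.5. At E9.5 the 25 Myog cells had 64.1 UPM of Lin28b (41.5 to 94.6) and 100 of Trim71 (71.1 to 137), close to the 76.6 and 102 UPM of the Pax3 or Pax7 cells. Within the Pax3 or Pax7 cells alone, the log2 ratio of E11.5 over E9.5 was −3.58 for Lin28b and −4.10 for Trim71, and Lin28a had 429 UMIs at E9.5 against 0 at E11.5. Igf2bp1 took a middle place, with 286 UPM in the Pax3 or Pax7 cells at E9.5 and 178, 165 and 155 in the 3 states at E11.5.

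**Figure D4:**
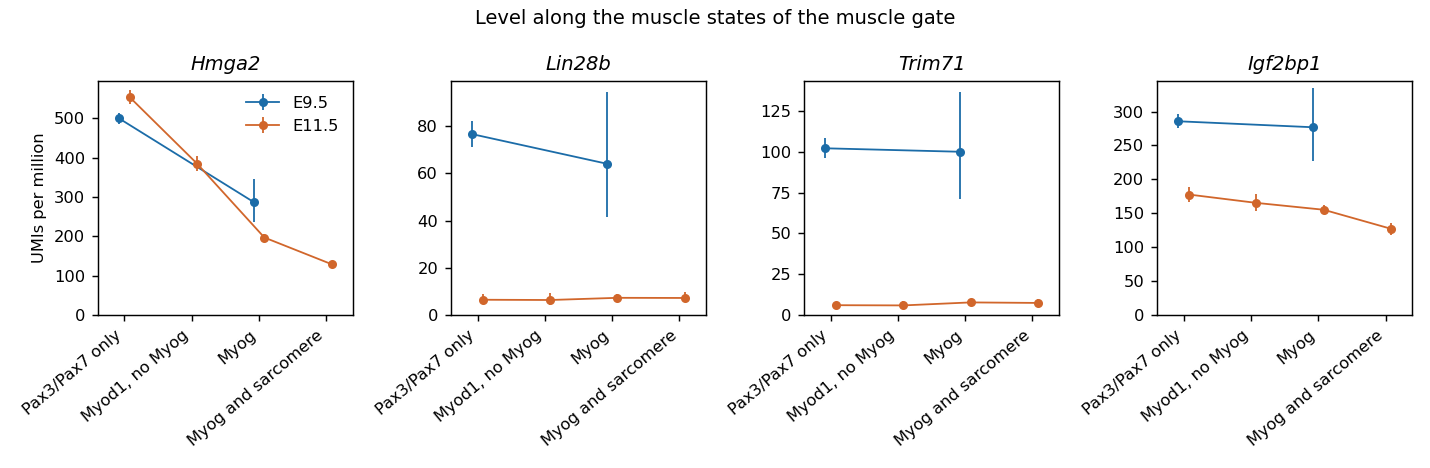
Level of Hmga2, Lin28b, Trim71 and Igf2bp1 in UPM over 4 states of the muscle gate at E9.5 (blue) and E11.5 (orange), with exact 95% Poisson intervals. States with fewer than 10 cells are left out. Hmga2 goes from 553 to 129 UPM along the states at E11.5 and has similar levels at both stages in the first, whereas Lin28b and Trim71 are flat at E11.5 and lie far under E9.5.

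Cells outside division had less Hmga2 in 4 of 5 gates at E11.5. At E11.5 its log2 ratio of cells not in division over dividing cells was −0.98 (−1.07 to −0.90) in muscle, −2.18 (−3.21 to −1.30) in neural tube, −0.69 (−1.26 to −0.16) in endothelial and −0.13 (−0.20 to −0.07) in sclerotome. In ectoderm it was 0.07 (−0.18 to 0.32). For Lin28b and Trim71 the same ratio in muscle was −0.03 (−0.60 to 0.50) and 0.24 (−0.30 to 0.75). Taking dividing cells of both stages, Lin28b was still lower by −3.51 on the log2 scale in muscle and −3.64 in sclerotome, and Trim71 by −3.99 and −4.82. At E9.5 few cells were outside division. There Hmga2 had 363 UPM in 27 such neural tube cells against 362 in dividing ones. It had 561 in 13 endothelial cells against 504, and 419 in 15 sclerotome cells against 467. The label of division depends on depth, and its overlap with the Myog state in muscle was not tested.

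Neurons, gated by at least 4 of 8 genes such as Tubb3 and Elavl3, were compared with the neural tube cells in the same library. At E11.5 the 304 neurons had 14.9 UPM of Lin28b (11.1 to 19.5) against 1.59 (0.19 to 5.73) in the neural tube gate, a log2 ratio of 3.23 (1.30 to 6.31). Trim71 had 17.2 UPM (13.1 to 22.1) against 7.14 (3.26 to 13.6), a log2 ratio of 1.26 (0.25 to 2.46). The neural tube gate at E11.5 held only 2 UMIs of Lin28b and 9 of Trim71. At E9.5 no such difference was seen, with log2 ratios of −0.26 (−1.02 to 0.40) for Lin28b and −0.22 (−0.76 to 0.28) for Trim71. At E11.5 Lin28a had 9 UMIs in the neurons and 0 in the neural tube gate, which did not separate them. Hmga2 was lower in neurons, with 66.6 UPM against 129 in the neural tube gate at E11.5. At E9.5 it was 114 in 54 neurons and 362 in the neural tube gate. The markers used do not separate neurons of the spinal cord from those of the dorsal root ganglia.

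The Igf2bp genes encode RNA-binding proteins that hold and stabilise mRNAs, among them that of Igf2. Their differences were graded, and in every gate of the main setting smaller than those of Lin28a, Lin28b and Trim71. Igf2bp1 was lower in each gate, from 286 to 163 UPM in muscle, 267 to 158 in sclerotome, 330 to 167 in neural tube, 222 to 130 in endothelial and 301 to 143 in ectoderm cells. Its log2 ratios lay between −1.08 (−1.31 to −0.85, ectoderm) and −0.76 (−0.82 to −0.70, sclerotome), so that only ectoderm passed 2-fold. The 5 intervals all lay under 0. The share of all genes with a lower ratio than Igf2bp1 ran from 3.95% in ectoderm to 7.21% in muscle.

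Igf2bp2 and Igf2bp3 passed 2-fold in no gate in the main setting. With cells thinned to 5000 UMIs, Igf2bp2 in neural tube passed it, with a log2 ratio of −1.51. Igf2bp2 went from 142 to 91.6 UPM in muscle, 132 to 113 in sclerotome, 145 to 73.0 in neural tube, 80.2 to 69.5 in endothelial and 159 to 118 in ectoderm cells, with log2 ratios of −0.99 (−1.30 to −0.69) in neural tube and −0.64 (−0.73 to −0.54) in muscle as the farthest from 0. Its interval in endothelial cells held 0 (−0.58 to 0.15). Igf2bp3 went from 163 to 146 UPM in muscle, 169 to 145 in sclerotome, 153 to 110 in neural tube, 108 to 87.2 in endothelial and 189 to 141 in ectoderm cells, and its log2 ratios lay between −0.48 and −0.16. These 2 genes had the fewest matches to the let-7 seed, while Lin28a, which had the widest difference, held 2. A relation between matches and ratios was not tested. A UMI of Igf2bp3 was found in 84.1% of muscle cells at E11.5 against 13.3% of red blood cells (18 of 135).

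At E9.5 Lin28a had the widest spread over the gates. Ectoderm gated cells had 114 UPM of Lin28a (98.6 to 131), above neural tube (58.6, 55.7 to 61.5), which was above muscle (40.2, 36.6 to 44.1). Muscle, sclerotome (35.4) and endothelial cells (28.2) followed with intervals that overlapped between neighbours, and the highest level was 4.03 times the lowest. The log2 ratio of ectoderm over endothelial cells was 2.01 (1.69 to 2.34). As said above, the ectoderm gate at E9.5 may hold other epithelia. Lin28b had another order, with muscle first at 75.8 UPM, apart from neural tube, ectoderm, sclerotome and endothelial cells (58.7 to 42.9), of which no neighbours were apart.

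The spread over gates at E9.5 was smaller for the other members. The highest level was 1.77 times the lowest for Lin28b, 1.65 times for Trim71, 1.45 times for Hmga2, 1.49 times for Igf2bp1, 1.98 times for Igf2bp2 and 1.75 times for Igf2bp3. Endothelial cells were lowest for Lin28a, Lin28b, Trim71 and the 3 Igf2bp genes, and neural tube was lowest for Hmga2. At E11.5 the spread of Hmga2 was 4.27 times, with sclerotome (552) above ectoderm (478), muscle (371), endothelial (241) and neural tube (129), all apart from their neighbours. That of Igf2bp1 was 1.28 times and no neighbours were apart. For Trim71 the order at E11.5 put endothelial cells first at 26.4 UPM (17.8 to 37.7), 8.91 times the level of sclerotome (2.97). Its interval overlapped that of ectoderm (11.9, 7.04 to 18.8), the next gate, and sclerotome was apart from muscle (6.64).

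New somite cells were taken as the 64 cells at E9.5 with at least 3 of 9 genes of segmenting mesoderm such as Ripply2 and Lfng. Cells with 3 or more neural tube or 4 or more neuron markers were left out. They were compared with the muscle gate of the same library. Cells that also passed the muscle gate were not removed, so the 2 groups may share cells. The Lin28a level of the new somite cells was 22.5 UPM (14.4 to 33.5), under the 40.2 of muscle, with a log2 ratio of −0.84 (−1.50 to −0.25). Lin28b was at 55.3 UPM, a log2 ratio of −0.46 (−0.86 to −0.07). Hmga2 was at 706 UPM (656 to 758), above every gate at E9.5, with a log2 ratio over muscle of 0.53 (0.42 to 0.64). At E11.5 only 1 cell passed this gate, so the stages could not be compared.

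The list of genes of let-7 maturation and decay held 16 genes, with the nuclear and cytoplasmic processing enzymes, the Argonautes and the uridine tailing and decay factors, and 13 to 16 passed the minimum of 50 UMIs in a gate. None was at least 2-fold lower in any gate, and 1 was at least 2-fold higher in each of muscle, sclerotome and neural tube. Over all genes 3.8% to 6.65% were lower and 5.52% to 16.3% higher, so that the absence of lower genes in a list of this size is near the background. The higher genes were Ago4 in muscle (log2 ratio 2.44, 6 and 72 UMIs) and sclerotome (2.44, 13 and 71 UMIs) and Ago1 in neural tube (1.91, 1.64 to 2.16). Both encode Argonaute proteins, which carry mature microRNAs. The log2 ratios of Zcchc11 lay between −0.23 and 0.82, those of Zcchc6 between 0.40 and 0.69 and those of Dis3l2 between 0.18 and 0.72. Dicer1, which cuts the hairpin, lay between −0.41 and 0.13.

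The mRNAs known as let-7 targets, other than the 7 genes, were a list of 30 genes. Of those tested, 11 of 29 in muscle, 7 of 29 in sclerotome, 9 of 29 in neural tube, 5 of 28 in endothelial and 11 of 27 in ectoderm cells were at least 2-fold lower, and 3, 4, 2, 2 and 1 were at least 2-fold higher. Of all genes, 4.79%, 3.94%, 6.65%, 3.8% and 4.81% were at least 2-fold lower in these gates. Those at least 2-fold higher were 16.3%, 16.2%, 13.5%, 5.52% and 7.67%, so that the higher counts are near or under the background. The median log2 ratio of the list was −0.48, −0.45, −0.41, −0.21 and −0.66. Arid3b, Nr6a1, Dnmt3b and Prtg were at least 2-fold lower in all 5 gates, and E2f5 was the fifth such gene in endothelial cells. Igdcc3 and Arid3a were lower in 4. Myc, the growth regulator, was lower in 3 of the 4 gates where it was tested and Mycn in 2 of 5.

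Prtg had 3233 UMIs in muscle at E9.5 against 109 at E11.5, or 293 and 4.47 UPM, and its log2 ratios lay between −6.94 in ectoderm and −4.33 in endothelial cells. Nr6a1, a nuclear receptor that acts in the trunk to tail transition, had 561 and 19 UMIs in muscle, or 50.8 and 0.779 UPM, and its log2 ratios lay between −6.03 and −2.91. Its 3′ UTR of 4453 bases held 8 matches to the let-7 seed, more than any member. Dnmt3b, a de novo DNA methyltransferase whose annotated 3′ UTR held 0 matches, had a log2 ratio of −2.26 in ectoderm and lay at the 2-fold threshold in neural tube, with 19.1 and 9.52 UPM. Arid3b, a transcription factor with 1 match, lay between −2.33 and −1.48.

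The share of targets that were higher was near or under that of all genes. Among them Ptprd, a receptor phosphatase, was at least 2-fold higher in 4 gates, with log2 ratios up to 2.96 in muscle. Col3a1, a fibrillar collagen with 1 match in its 3′ UTR, was at least 2-fold higher in 3 gates and had a log2 ratio of 3.55 in muscle and 3.99 in ectoderm, where it had 5 UMIs at E9.5 against 68 at E11.5. Thbs1, a matrix protein, was at least 2-fold higher in muscle (1.35) and sclerotome (2.72). Ccnd2 (1.42) and E2f6 (1.04) in sclerotome and Ccnd1 (1.01) in neural tube were the remaining ones. Ccnd1 was at least 2-fold lower in muscle (−1.37) and ectoderm (−2.08), and Ccnd2 was lower in neural tube (−2.10), so that these cyclins, which drive the cell cycle, differed in both directions. Of the 30 genes, 20 held a 7-base match, against 8.97% of all genes, whose median 3′ UTR was 956 bases. Lengths were not matched for this list, which was chosen as known targets.

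**Figure D5:**
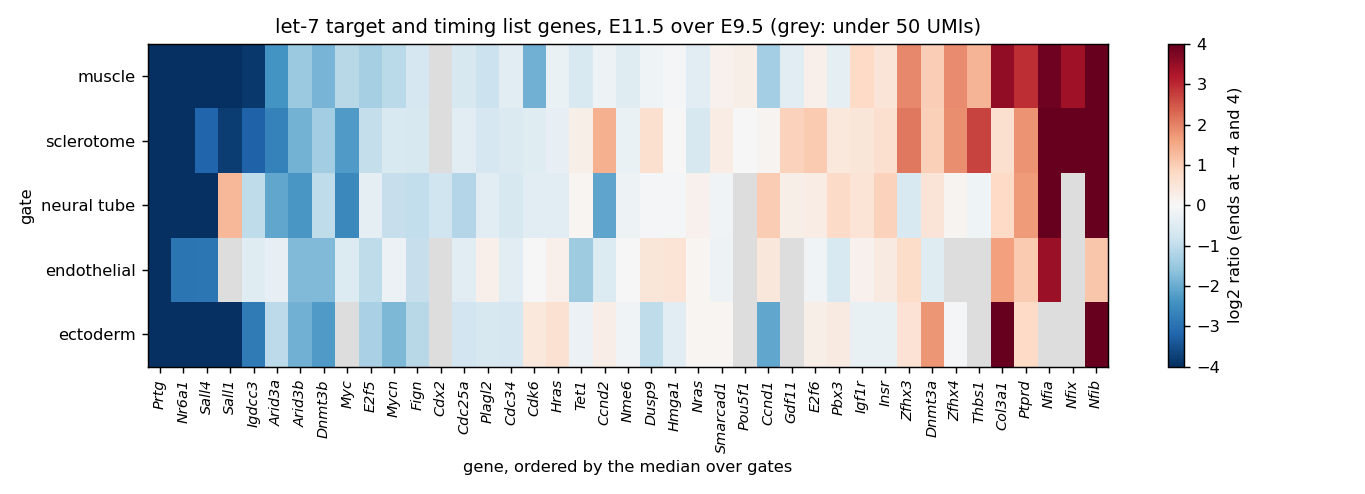
Log2 ratio of E11.5 over E9.5 of let-7 target and timing list genes in the 5 gates, with colours that end at −4 and 4 and grey where a gene had under 50 UMIs. Genes are ordered by their median over gates, with Prtg, Nr6a1 and Sall4 at the low end and Nfia, Nfix and Nfib at the high end.

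A list of 18 other genes used as markers of developmental age, which shares Nr6a1 and Dnmt3b with the list above, went in both directions. Of the 14, 14, 13, 9 and 10 tested, 4, 4, 3, 4 and 4 were at least 2-fold lower and 5, 5, 3, 2 and 2 at least 2-fold higher. Over all genes 4.79%, 3.94%, 6.65%, 3.8% and 4.81% were lower and 16.3%, 16.2%, 13.5%, 5.52% and 7.67% higher. Sall4, a zinc finger factor of pluripotent and early embryonic cells, was lower in all 5 gates, with 702 and 26 UMIs in muscle and log2 ratios between −5.90 and −2.90. Sall1 was lower in muscle (−5.36), sclerotome (−3.79) and ectoderm (−4.02) and higher in neural tube (1.34). Tet1 was lower in endothelial cells (−1.44) and Dnmt3a higher in ectoderm (1.77).

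The Nfi factors, which are known from late progenitors of the nervous system and from fetal muscle, differed in the opposite direction to Lin28. Nfib had 10 UMIs in muscle at E9.5 against 3427 at E11.5, or 0.906 and 141 UPM, and was at least 2-fold higher in all 5 gates, with log2 ratios between 1.09 in endothelial cells and 7.28 in muscle. Nfia was higher in the 4 gates where it passed the minimum, with log2 ratios between 3.45 and 6.93. Nfix had 0 UMIs at E9.5 against 69 at E11.5 in muscle and 0 and 188 in sclerotome, so that against 3 UMIs its log2 ratio was at least 3.38 and 5.97. Zfhx3 and Zfhx4, large homeodomain factors, were at least 2-fold higher in muscle (1.92 and 1.89) and sclerotome (2.10 and 1.85) and in no other gate.

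Igf2 itself, the growth factor whose mRNA the Igf2bp proteins bind, was at least 2-fold higher in muscle (log2 ratio 1.84, 129 to 462 UPM), sclerotome (2.11, 123 to 534 UPM) and neural tube (1.10, 12.9 to 27.8 UPM). H19, the non-coding RNA of the same imprinted locus, was higher in the same gates at 1.35, 1.55 and 1.08. In ectoderm the log2 ratio was −0.08 (−0.31 to 0.14) for Igf2 and −0.75 for H19. Of the other mRNAs known to be bound by Igf2bp proteins, Ptges was at least 2-fold lower in muscle (−1.63) and sclerotome (−1.16), Cd44 was higher in muscle (2.38) and lower in sclerotome (−2.54), and Actb passed 2-fold in none. Of the 7 mRNAs of this list, 3, 2, 2, 0 and 0 were at least 2-fold higher and 1, 2, 0, 0 and 0 lower, of 7, 7, 6, 5 and 5 tested. Over all genes 16.3%, 16.2%, 13.5%, 5.52% and 7.67% were higher and 3.8% to 6.65% lower.

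Among 7 mRNAs known as bound or held down by Trim71, 3 were at least 2-fold higher in muscle, 3 in sclerotome, 1 in neural tube, 0 in endothelial and 2 in ectoderm cells, of 7, 7, 6, 6 and 5 tested, and 0, 0, 1, 0 and 1 were lower. Of all genes, 16.3%, 16.2%, 13.5%, 5.52% and 7.67% were higher and 4.79%, 3.94%, 6.65%, 3.8% and 4.81% lower. The higher counts in neural tube and endothelial cells are thus near the background. Rbl2, a pocket protein of the retinoblastoma family, was higher in the 3 gates where it passed the minimum (1.10, 2.19 and 2.11). Egr1, an immediate early gene, was higher in muscle (4.00), sclerotome (1.10) and ectoderm (5.61). Cdkn1a, a brake on the cell cycle, was higher in muscle (3.07) and lower in ectoderm (−1.55).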

How the data were processed

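Droplet scRNA-seq libraries were aligned to mm10 with Cell Ranger 3.0.1, per the labels. The deposited values are raw UMI counts per gene and barcode, which the authors left unnormalised. Counts were summed with Python 3.11.15 and scipy 1.17.1 over the cells of each gate. The gates' marker numbers were set from the number of markers per cell. Genes with at least 50 UMIs over both stages of a gate were compared, and a gene past 2-fold was counted as called, with those past 8-fold also counted. Ratios carry the exact interval of 2 Poisson counts (95%) and shares the Clopper-Pearson interval, for counting error only. The ratio interval was tested on simulated Poisson counts, which hold no spread between cells, embryos or libraries. A count of 0 was set to 3 UMIs for every gene. Scrublet (scanpy 1.11.5) scores over 0.2 marked doublets in an alternative, since its automatic threshold marked 0 cells at E11.5 (553 at E9.5). Cells that pass several gates were left out. Other alternatives thinned each cell to 5000 UMIs, asked for 1 more marker or at least 1000 genes, took the mean over cells, the dividing cells or the members with at least 50 UMIs, or centred on the median gene. Members and lists were chosen with earlier results of these data known. Named list genes pass 2-fold in the most gates in 1 direction, up to 4 in each, with those whose count is 5 or fewer. Some genes that these rules name are not reported here. Kept as context outside that rule, and chosen after their values were seen, are Arid3a, Igdcc3, Myc, Mycn, Zcchc11, Zcchc6, Dis3l2, Dicer1, Actb and Zfhx4. Reference sequences are from RefSeq (GRCm38.p6) and GENCODE M21 (GRCm38).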

Additional observations from a re-analysis of the deposited data

Results flagged for a closer look

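Hmga2 was flagged because its difference between the stages had opposite directions in different gates, with counting intervals away from 0. The log2 ratio of E11.5 over E9.5 was 0.24 in sclerotome and −0.40 in muscle, −1.48 in neural tube and −1.07 in endothelial cells. Each gate rests on 1 library per stage, so the difference between the gates was not tested. Relative to the median of all genes the sclerotome value was 0.05. In the muscle gate, cells with Pax3 or Pax7 and without Myod1 and Myog gave 0.15. Dividing cells alone gave −0.21 in muscle.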

How the results depend on the processing

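Under 8 other settings and 1 more chosen after seeing the data (cells that pass several gates kept), the number of members at least 2-fold lower was 3 in muscle and in sclerotome throughout, 3 to 6 in neural tube, and 3 to 4 in endothelial and in ectoderm cells. The neural tube number reached 6 with thinned cells and on centring, since Igf2bp1 and Igf2bp2 lay near the threshold in the main setting. Their lowest log2 ratios there were −1.13 for Igf2bp1, on centring, and −1.51 for Igf2bp2, with thinned cells. The setting that took only members with at least 50 UMIs left out no member, so it repeats the main result and is no check. No member ratio past 2-fold changed direction. Apart from Lin28a, the largest moves were those of Lin28b in neural tube, from −5.21 to −3.64 when cells that pass several gates were kept, and in endothelial cells, from −2.02 to −0.97 with thinned cells. Lin28a at E11.5 rests on 7 UMIs, and after thinning its count was 0 in 4 gates, so its ratio there is only a bound. In neural tube it went from a bound of −4.62 to −7.11, on 1 UMI, when cells that pass several gates were kept. No paired analysis was possible because each stage has 1 library. Depth limits any statement on Lin28a at E11.5, and neural tube and endothelial cells were few at that stage.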

Other observations

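Of 6 classes outside the 5 gates, neural crest, nephric, lateral mesenchyme and red blood cells had a lower level of Lin28b and a higher level of Hmga2 at E11.5. In neural crest gated cells (369 at E9.5 and 193 at E11.5) Lin28a had 498 and 3 UMIs, and Lin28b went from 57.3 to 12.4 UPM, a log2 ratio of −2.21 (−2.68 to −1.78). Hmga2 went from 552 to 828 UPM there, a log2 ratio of 0.58 (0.51 to 0.65). In nephric cells Hmga2 went from 624 to 929 UPM (0.57, 0.47 to 0.68) and in lateral mesenchyme cells from 667 to 1067 UPM (0.68, 0.54 to 0.82). Lin28b went from 59.1 to 4.90 and from 64.9 to 5.63 UPM in these classes. The lateral mesenchyme class held 154 cells at E9.5 and only 34 at E11.5. At E11.5 its own markers summed to 401 UPM and the muscle markers to 413. In red blood cells Hmga2 went from 26.4 to 74.6 UPM (1.50, 1.02 to 2.00). These were 46 UMIs in 15 of 117 cells and 175 UMIs in 22 of 135 cells. Whether free RNA or a few mixed cells gave them was not tested. In neurons Hmga2 was lower instead, from 114 to 66.6 UPM with a log2 ratio of −0.78 (−1.26 to −0.27), along with Lin28a (−4.89) and Lin28b (−1.72, −2.52 to −0.86). White blood cells held 1, 3 and 2 UMIs of Lin28a, Lin28b and Hmga2 at E9.5, too few to compare. The cells that passed no gate had 534 UPM of Hmga2 at E9.5 and 904 at E11.5. Over all kept cells Hmga2 went from 471 to 635 UPM, so that the whole library and the muscle gate gave opposite directions, while Lin28a went from 7111 to 64 UMIs, Lin28b from 8294 to 783 and Trim71 from 13267 to 648.

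Correlation over the 10 groups of gate and stage was taken among 10136 genes with at least 500 UMIs (Pearson r of log2(UPM + 1)). For Lin28a the genes with the highest r were Nr6a1 (0.99), Eif3b (0.98) and Nsun2 (0.97). For Lin28b they were Pabpc1 (0.99), Eif1a (0.97) and Rpl36al (0.97), and for Hmga2 they were Mtf2 (0.97) and Fbxo42 (0.95). Between Lin28a and Lin28b r was 0.95, between Lin28a and Trim71 0.95, and between Lin28a and Hmga2 0.48. The 10 groups come from 2 libraries, and these values are a description. They do not measure the size of a difference. In muscle Lin28a went from 40.2 to 0.0410 UPM and Nr6a1 from 50.8 to 0.779. Eif3b went only from 186 to 110 UPM and Nsun2 from 133 to 74.1. Lin28b went from 75.8 to 6.60 UPM there, against 802 to 514 for Pabpc1, 201 to 100 for Eif1a and 1095 to 746 for Rpl36al.

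Of 11 let-7 and miR-98 hairpins in the RefSeq entries, 8 held GGAG, the bases that the zinc knuckles of Lin28 are known to bind, between the arms of the hairpin. That of let-7g is printed with these bases in capitals, chr9:106178840-106178927 on the plus strand of GRCm38.
let-7g hairpin: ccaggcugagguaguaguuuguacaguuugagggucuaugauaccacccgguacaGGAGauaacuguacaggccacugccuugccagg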
